A study of Mus musculus with 6 samples.

Results

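Snora28, Snora81, Snora41 and Snora31 are box H/ACA small nucleolar RNAs (snoRNAs) encoded within the translation initiation factor genes Eif5 and Eif4a2, the elongation factor gene Eef1b2 and Tpt1. They were taken from the panel by the RefSeq transcript of each symbol (NR_033168, NR_034048, NR_028558 and NR_028481), and they make up 4 of the 67 snoRNAs with values, or 4 of the 72 listed. The study measured C2C12 cells, a line of mouse muscle precursors whose cells fuse into myotubes when they differentiate. Myotubes differentiated for 7 days (3 samples) were compared with control myoblasts (3 samples), all of this single line and with total RNA as the source. The assay was a custom NanoString nCounter panel, in which colour-coded probes bound to RNA are counted with no amplification step, and the question was which snoRNAs change during differentiation. No genetic change is named for any sample. The cell type field of the labels reads myoblasts for all 6 samples, so the state was taken from the titles, with which the treatment field agrees in every sample. None of 15 marker genes looked for (of myoblasts, cycling cells, myotubes and fibroblasts) was on the panel under a symbol, and the state therefore rests on the labels alone.

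H/ACA snoRNAs are bound by dyskerin and its partner proteins and guide the conversion of uridine to pseudouridine at sites chosen by base pairing, mostly in ribosomal RNA. In mammals most of them have no promoter of their own. They are cut from introns of a host gene after splicing, so that 1 primary transcript gives both the host mRNA and the snoRNA. Many hosts, such as genes of ribosomal proteins and translation factors, belong to the class of mRNAs with a terminal oligopyrimidine tract, whose translation follows growth signals. Among the hosts here, Eif5 encodes the factor that stimulates GTP hydrolysis by eIF2 during start codon selection. Eif4a2 encodes an initiation factor that is an RNA helicase. Eef1b2 encodes a nucleotide exchange factor for eEF1A, and Tpt1 encodes the translationally controlled tumour protein. In human cells the orthologue of Snora28 is a guide for 18S rRNA.

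The sequences that the sources hold for these snoRNAs are the promoters of their hosts, shown because a snoRNA cut from an intron shares the transcription start of its host. The 250 bases upstream of each annotated start, from RefSeq on build GRCm38.p6, were matched for all 4 hosts by symbol. They are printed from 5′ to 3′ on the strand of the gene, with capitals at GGGCGG, the GC box, or its reverse complement CCGCCC.
Eif5, chr12:111537851-111538100, strand +: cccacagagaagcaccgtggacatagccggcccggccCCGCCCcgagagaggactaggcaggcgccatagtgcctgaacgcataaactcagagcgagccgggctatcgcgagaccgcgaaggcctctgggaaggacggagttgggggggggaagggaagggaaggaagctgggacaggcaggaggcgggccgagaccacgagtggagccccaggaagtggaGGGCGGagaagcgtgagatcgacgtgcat
Eif4a2, chr16:23107218-23107467, strand +: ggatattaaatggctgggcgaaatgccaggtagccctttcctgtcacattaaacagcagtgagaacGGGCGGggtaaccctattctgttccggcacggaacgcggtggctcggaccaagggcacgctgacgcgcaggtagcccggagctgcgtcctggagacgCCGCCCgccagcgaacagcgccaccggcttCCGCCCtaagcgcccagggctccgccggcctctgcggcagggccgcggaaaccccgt
Eef1b2, chr1:63176581-63176830, strand +: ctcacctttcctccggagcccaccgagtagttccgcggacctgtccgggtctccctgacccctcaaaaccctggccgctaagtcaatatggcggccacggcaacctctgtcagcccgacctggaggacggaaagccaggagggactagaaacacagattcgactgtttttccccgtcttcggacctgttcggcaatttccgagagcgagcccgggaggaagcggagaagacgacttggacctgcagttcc
Tpt1, chr14:75845006-75845255, strand +: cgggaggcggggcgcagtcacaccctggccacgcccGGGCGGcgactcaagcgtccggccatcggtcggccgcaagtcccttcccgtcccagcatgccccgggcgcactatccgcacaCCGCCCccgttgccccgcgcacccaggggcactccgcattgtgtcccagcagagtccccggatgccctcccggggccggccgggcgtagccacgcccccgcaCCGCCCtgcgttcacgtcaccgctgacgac
The GC box was found 2 times upstream of Eif5, 3 times upstream of Eif4a2 and of Tpt1, and not upstream of Eef1b2. Of all 32851 upstream windows of this length, 32.7% held it. The motif CANNTG, the E-box bound by myogenic factors such as MyoD, reads the same on both strands and was found in none of the 4 windows, against 66.2% of all windows. CCGGAAG, a core of ETS factor sites, was also in none of them on either strand, against 6.91% of all windows. The windows had a GC content of 60.4% to 75.6%, where the median of all windows was 52.4%. These matches describe letters only, and host transcription was not measured on the panel.

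In every sample the values were whole multiples of 1 factor. They are called normalized counts here and are read as probe counts multiplied by that factor, which no source states. Between 1097844 and 1627062 counts per sample were implied by them, the lowest in myoblast sample 1. Implied counts of the 4 snoRNAs ran from 2170, for Snora41, to 101548, for Snora28. If they are the probe counts, the counting error of any single value was at most 2.15%, which covers counting error only. Over all measured snoRNAs the log2 difference between myotube samples 1 and 2 had an SD of 0.08, while sample 3 differed from these samples with an SD of 0.35 and 0.37. Among myoblasts it was 0.21 between samples 2 and 3, and 0.49 and 0.36 between sample 1 and samples 2 and 3. Chi-square per degree of freedom of the implied counts was 13.4 for myotube samples 1 and 2, and at least 89.1 for every other pair of a group. This shows differences beyond counting error, but it cannot tell separate cultures from repeat assays. All 6 were kept as separate samples, and averaging myotube samples 1 and 2 was run as an alternative. The labels do not say whether samples came from separate cultures, and p-values then measure only the spread between these samples, which may be technical.

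Myotubes were set against myoblasts to ask how far each snoRNA moved. Of the 4 snoRNAs, Snora28 and Snora31 were higher in myotubes, and Snora41 and Snora81 did not pass the test. On the whole panel 35.8% of snoRNAs were called higher (24 of 67) and 19.4% lower (13 of 67), together 55.2%, with limma and a Benjamini-Hochberg adjusted p under 0.05, so 2 of 4 is not read as more than the panel gives. The median log2 change was 0.62 over the 4 snoRNAs and 0.14 over the panel. With equal panel totals the panel split into 22 higher and 20 lower, and all log2 changes moved by a median of -0.18. Under quantile normalization it split into 20 higher and 17 lower, with a median move of -0.19. Relative to the median of the panel, the log2 changes on the deposited scale were 1.45 for Snora28, 0.62 for Snora31, 0.35 for Snora41 and -0.43 for Snora81. These bulk samples cannot tell fewer cells that express a snoRNA from less of it per cell.

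Snora28, the guide in Eif5, had normalized counts of 111596, 109331 and 98001 in myotubes, against 26824, 41244 and 39794 in myoblasts. Every myotube sample was above every myoblast sample, and the lowest myotube value exceeded the highest myoblast value by 56757. Its mean was 106309 ± 7284 in myotubes and 35954 ± 7940 in myoblasts (SD, n = 3 each). The fitted fold was 3.01 with a 95% interval of 2.23 to 4.05 (log2(value + 1) scale, log2 change 1.59 ± 0.18 SE, limma adjusted p = 0.00039). It was the third largest rise of the panel. The rise was past the threshold under every alternative scaling and without any single sample, with log2 changes of 1.36 to 1.70. In myotubes Snora28 took 6.13% ± 0.30 of the summed panel signal, and in myoblasts 2.33% ± 0.40 (SD, n = 3 each).

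Snora31, in the gene of the translationally controlled tumour protein, had normalized counts of 58499, 55733 and 40380 in myotubes, against 26777, 32244 and 31698 in myoblasts. The groups did not overlap, and myotube sample 3 lay nearest to the myoblasts, 8136 above the highest of them. Myotube values lay above all myoblast values for 41.8% of the panel, and groups did not overlap in either direction for 65.7%. The mean was 51537 ± 9761 in myotubes and 30240 ± 3011 in myoblasts (SD, n = 3 each), a fitted fold of 1.69 with a 95% interval of 1.28 to 2.23 (limma adjusted p = 0.0073). With quantile normalization its log2 change was 0.45 in place of 0.76 and no longer passed (limma adjusted p = 0.059). With each sample left out in turn it ranged from 0.65 to 0.92 and stayed past the threshold, with limma adjusted p of at most 0.035.

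**Figure D1:**
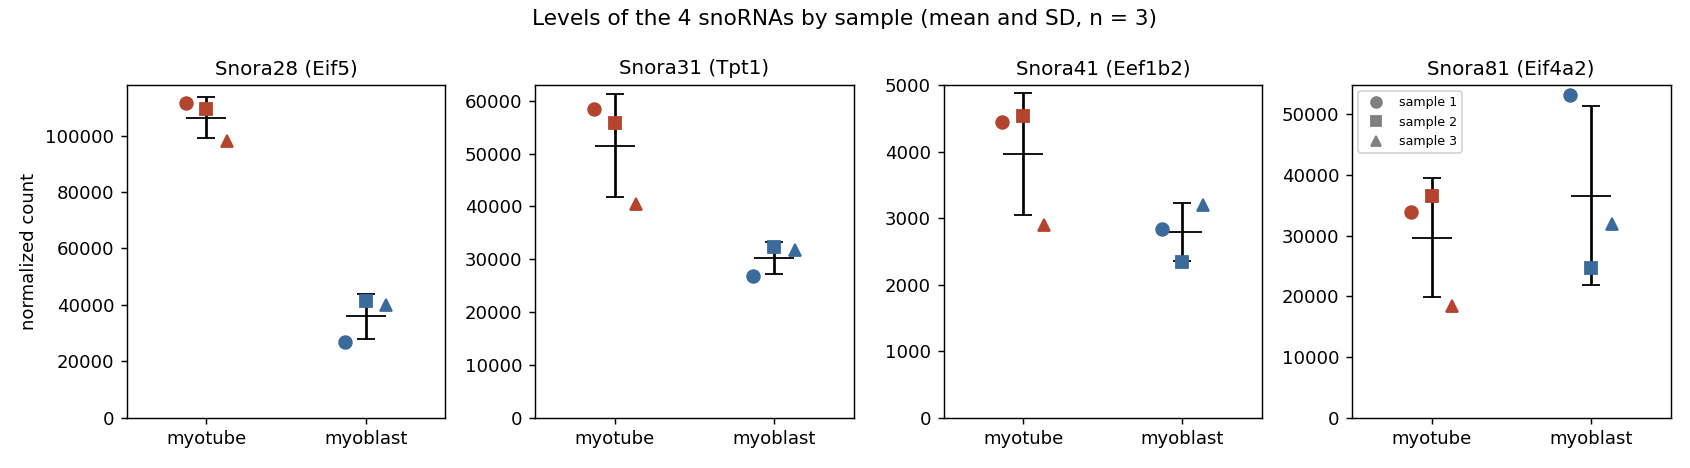
Normalized count (vertical axes, from 0) of each snoRNA in 3 myotube and 3 myoblast samples, with the host gene in parentheses. Points are samples, marked by sample number, and bars give the mean and SD. Myotube values of Snora28 and Snora31 lie above all myoblast values, while those of Snora41 and Snora81 overlap with them.

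Snora41, in the elongation factor gene, had the lowest signal of the 4, although levels of different probes also depend on how well each hybridises. It had normalized counts of 4447, 4532 and 2901 in myotubes, against 2836, 2340 and 3200 in myoblasts. Myotube samples 1 and 2 were above all myoblasts, whereas myotube sample 3 fell between myoblast samples 1 and 3. The mean was 3960 ± 918 in myotubes and 2792 ± 432 in myoblasts (SD, n = 3 each). Its log2 change of 0.49 ± 0.21 SE missed the threshold (limma adjusted p = 0.081), and the 95% interval of the ratio of myotubes to myoblasts was 0.997 to 1.97. Without myotube sample 3 it passed, at a log2 change of 0.70 (limma adjusted p = 0.0091). It also passed under quantile normalization, at 0.50 (limma adjusted p = 0.01). With equal panel totals it was 0.31 (limma adjusted p = 0.22).

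Snora81, in the helicase gene Eif4a2, had normalized counts of 33893, 36540 and 18384 in myotubes, against 53081, 24645 and 31936 in myoblasts. The groups overlapped, with the highest value of all in myoblast sample 1 and the lowest in myotube sample 3. The mean was 29606 ± 9808 in myotubes and 36554 ± 14770 in myoblasts (SD, n = 3 each). The log2 change of -0.29 ± 0.35 SE did not pass (limma adjusted p = 0.52), and its 95% interval, a ratio of myotubes to myoblasts of 0.46 to 1.44, does not exclude a 2-fold fall. The sign rested on single samples. It was 0.020 without myotube sample 3 and 0.015 without myoblast sample 1 (limma adjusted p = 0.97 for both). With other samples left out the log2 change reached -0.54, without myoblast sample 2 (limma adjusted p = 0.21). Scaling all samples to equal panel totals gave -0.47, and quantile normalization gave -0.59, neither of which passed (limma adjusted p = 0.32 and 0.3).

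**Figure D2:**
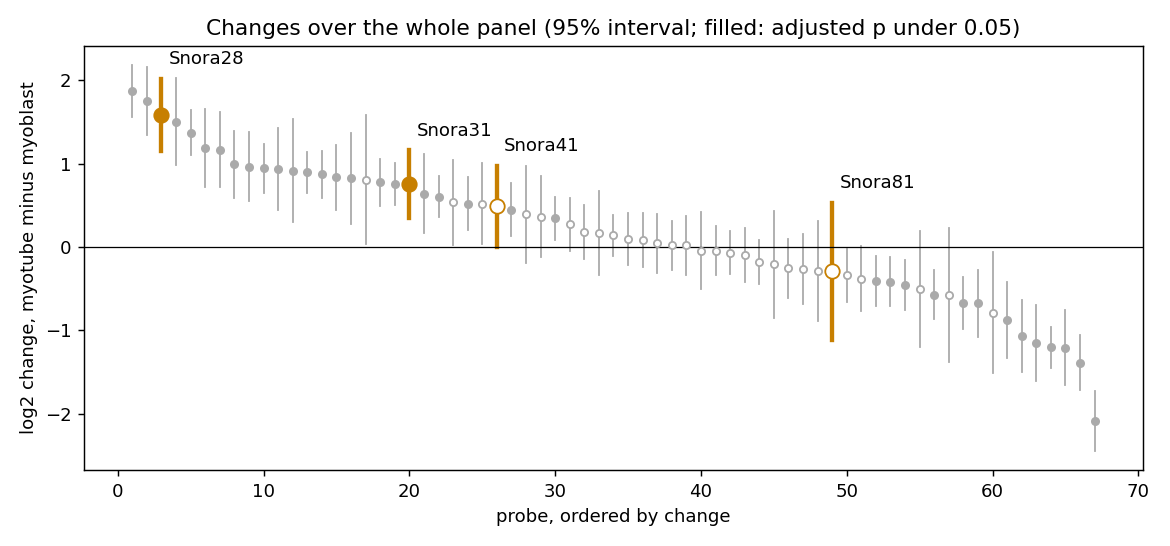
Log2 change, myotube minus myoblast, of all 67 measured snoRNAs, ordered from the largest rise at rank 1 to the largest fall, with 95% intervals from limma. Filled points passed an adjusted p of 0.05 and open points did not. The 4 snoRNAs of translation factor genes and Tpt1, in orange, spread from rank 3 for Snora28 through ranks 20 and 26 for Snora31 and Snora41 to rank 49 for Snora81.

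The 4 snoRNAs also differed in the spread between samples of a state. Snora81 had the largest spread within groups of all 67 snoRNAs, with a pooled SD of 0.55 (log2), where the median of the panel was 0.21. Snora65, in the ribosomal protein gene Rpl12, came next at 0.54. Within myotubes alone Snora81 stood at rank 1, and within myoblasts alone at rank 4. Snora41 stood at rank 15 with 0.30, Snora28 at rank 25 with 0.25 and Snora31 at rank 30 with 0.23. For Snora28 the spread lay mostly in myoblasts, at 0.34, against 0.10 in myotubes. For Snora31 it was the other way round, with 0.29 in myotubes and 0.15 in myoblasts.

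Myotube sample 3 and myoblast sample 1 were the samples that departed most from their groups. Myotube sample 3 was below the mean of myotube samples 1 and 2 for all 4, at log2 differences of -0.17 for Snora28, -0.50 for Snora31, -0.63 for Snora41 and -0.94 for Snora81. The median over the panel was -0.15, and -0.94 was the lowest value of any snoRNA. In myoblast sample 1 the members went apart. Relative to the mean of myoblast samples 2 and 3, the log2 difference was 0.92 for Snora81, the highest of the panel, and -0.59 for Snora28, where the median of the panel was -0.12. Snora41 was at 0.05 and Snora31 at -0.26. Myoblast sample 1 also had the lowest implied count and the largest scaling factor, 1.31, against 1.01 to 1.11 in the other samples. The factor of myotube sample 3 was 1.07, within that range. The part of depth or scaling in these departures was not tested. Myotube samples 1 and 2 differed by at most 0.11 (log2) for any of the 4.

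**Figure D3:**
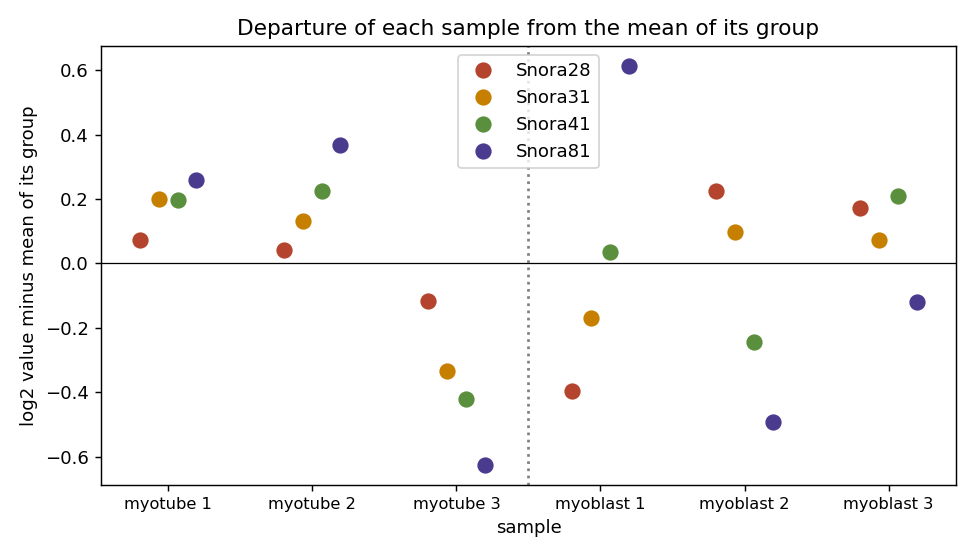
Log2(value + 1) of each snoRNA in each sample minus the mean of its group (vertical axis), for 3 myotube and 3 myoblast samples. Points are single samples, coloured by snoRNA. All 4 lie below the mean of their group in myotube sample 3, and in myoblast sample 1 Snora81 is high while Snora28 is low.

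Ratios between the snoRNAs were compared because they do not depend on the factor applied to each sample. Since the levels of 2 probes are not comparable, only the differences between states are read. All 6 pairs were tested, and with 3 samples against 3 the smallest possible exact p is 0.1, which cannot pass 0.05. The log2 ratio of Snora28 to Snora81 was 1.72, 1.58 and 2.41 in myotubes, against -0.98, 0.74 and 0.32 in myoblasts. Groups did not overlap, and the difference of 1.88 ± 0.58 SE was the largest of the 6 pairs (exact two-sided permutation p = 0.1, adjusted p = 0.12). It was 1.37 without myoblast sample 1 and at most 2.24 without any other sample.

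The ratios of Snora28 to the other members were likewise higher in every myotube sample than in any myoblast sample. Its log2 ratio to Snora31 was 0.93, 0.97 and 1.28 in myotubes, against 0.00, 0.36 and 0.33 in myoblasts, a difference of 0.83 ± 0.16 SE (exact two-sided permutation p = 0.1, adjusted p = 0.12). Its log2 ratio to Snora41 was 4.65, 4.59 and 5.08 in myotubes, against 3.24, 4.14 and 3.64 in myoblasts, a difference of 1.10 ± 0.30 SE with the same p.

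The ratios to Snora81 of the remaining members were higher in all myotube samples than in any myoblast sample. That of Snora31 to Snora81 differed by 1.05 ± 0.44 SE and that of Snora41 to Snora81 by 0.78 ± 0.31 SE (exact two-sided permutation p = 0.1, adjusted p = 0.12, for both). Without myoblast sample 1 these differences were 0.66 and 0.49. Among these 6 pairs, only the ratio of Snora31 to Snora41 overlapped between states. Over all 2211 pairs of measured probes, 68.4% had ratios that did not overlap, so 5 of 6 pairs is not read as a trait of these snoRNAs. Their log2 ratio was 3.72, 3.62 and 3.80 in myotubes, against 3.24, 3.78 and 3.31 in myoblasts, a difference of 0.27 ± 0.18 SE (exact two-sided permutation p = 0.3, adjusted p = 0.3). It ranged from 0.17 without myoblast sample 1 to 0.44 without myoblast sample 2, and was -0.053 under quantile normalization.

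**Figure D4:**
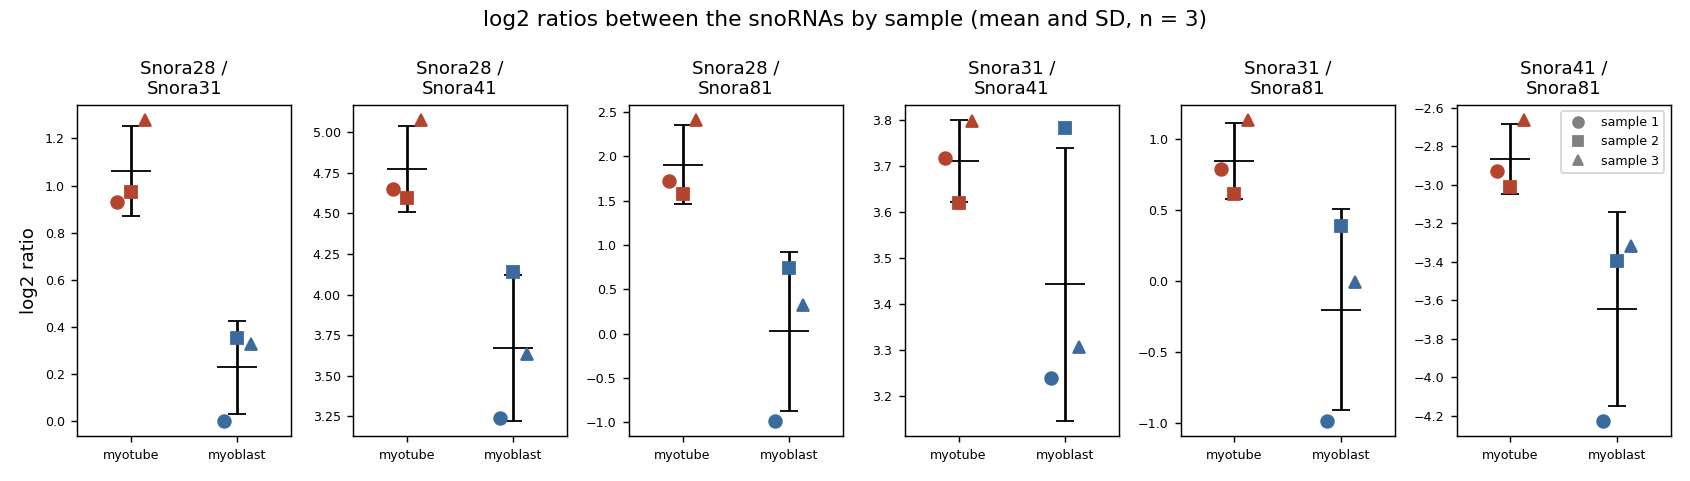
Log2 ratio of each of the 6 pairs of snoRNAs in 3 myotube and 3 myoblast samples, with mean and SD. Each panel has its own vertical axis, which does not start at 0. Myotube values are above all myoblast values in 5 pairs and overlap with them for Snora31 to Snora41.

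Summed over the 4 snoRNAs, the normalized count was 208435, 206136 and 159667 in myotubes, against 109518, 100472 and 106628 in myoblasts. This was 11.9%, 11.8% and 9.43% of the panel signal in myotubes, against 7.63%, 6.34% and 6.71% in myoblasts. All myotube shares were above all myoblast shares, and the means differed by 4.13 percentage points (exact two-sided permutation p = 0.1, the smallest possible). Most of this came from Snora28, whose mean share of the panel was 6.13% in myotubes and 2.33% in myoblasts. In the same order the means were 2.97% and 1.97% for Snora31, 0.23% and 0.18% for Snora41, and 1.70% and 2.42% for Snora81. Among single snoRNAs, normalized counts of the groups did not overlap for 65.7% of the panel in either direction, and for 41.8% with myotubes higher. No such background was computed for shares or for sums of 4 probes. Signals of different probes are not comparable, so the sum describes signal only. Shares within the sum are given as a description, since they must add up and a higher Snora28 lowers the share of the others. Snora28 gave 56.0% ± 4.68 of it in myotubes and 34.3% ± 8.69 in myoblasts (SD, n = 3 each). Snora81 gave 15.2% ± 3.25 in myotubes and 34.3% ± 12.6 in myoblasts, of which myoblast sample 1 alone stood at 48.5%. The mean shares of Snora31 and Snora41 were lower in myotubes although their mean levels were higher there. Snora31 held 26.8% ± 1.40 of the sum in myotubes and 28.8% ± 3.91 in myoblasts, and Snora41 held 2.05% ± 0.20 in myotubes and 2.64% ± 0.34 in myoblasts (SD, n = 3 each).

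Profiles over the 6 samples were compared by the root mean square difference of log2 values, each centred on its own mean, where 0 is an identical profile. This is a description over samples of 2 states, and a small value mostly means a similar change and a similar spread. Neighbours were picked on these same samples, so a direction or sample order shared with a member largely follows from that choice. Nearest to Snora28 among probes with a symbol were Snora30, in Srcap, at 0.13 and Snora47, in Zbed3, at 0.21, where the median of the panel was 0.76. Their normalized counts were higher in every myotube sample than in any myoblast sample, as for Snora28 and for 41.8% of the panel. For Snora28, 1 probe without a symbol was also nearer than Snora47 and Snora30. For Snora31 they were Snora5c, in Tbrg4, at 0.14 and Snora70, in the ribosomal protein gene Rpl10, at 0.15 (median of the panel 0.42). For Snora41 they were Snora69 at 0.10 and Snora2b at 0.11 (median 0.40), neither of which passed the test of change (limma adjusted p = 0.2 and 0.066).

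Snora81 was nearest to Snora64 and Snora65, both in ribosomal protein genes, at 0.15 each (median 0.60), with 1 probe without a symbol nearer than both. Snora65 had normalized counts of 2920, 3012 and 1622 in myotubes, against 5509, 2456 and 3498 in myoblasts, the same order of samples within each state as Snora81. Snora64 had 4061, 4439 and 2663 in myotubes, against 5728, 3371 and 4468 in myoblasts. In both, too, myoblast sample 1 was the highest of all and myotube sample 3 the lowest, and neither passed the test of change (limma adjusted p = 0.37 for Snora64 and 0.19 for Snora65). Among the 4 snoRNAs themselves, Snora31 and Snora41 were nearest, at 0.22, and Snora28 and Snora81 farthest, at 1.10.

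Other snoRNAs of translation genes were set beside these 4. Of 23 listed candidates, 10 were measured under a symbol and lay in ribosomal protein genes by the annotation. Snora3, Snora70, Snora7a and Snora68 rose, Snora52 fell, and 5 did not pass (limma), against 35.8% higher and 19.4% lower over the panel. Log2 changes ran from -0.67 for Snora52 to 0.94 for Snora3, with a median of 0.18. The median was 0.62 over the 4 snoRNAs, which ran from -0.29 to 1.59. Over the panel it was 0.14, with changes from -2.09 to 1.87. Snora65 and Snora69, also annotated in ribosomal protein genes but not on the list, did not pass, at -0.58 and 0.39. In myotube sample 3 the 10 listed snoRNAs stood at a median log2 difference of -0.16 from the mean of myotube samples 1 and 2. With Snora65 and Snora69 added, the median over these 12 snoRNAs was -0.26. It was -0.56 for the 4 snoRNAs and -0.15 over the panel. The annotation places further snoRNAs within Eef1b2 and Eif4a2, among them Snord2, and none of these was on the panel under a symbol.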

How the data were processed

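The deposited table held 1 normalized signal per probe and sample. How the authors scaled it is not given here in any source. Per the labels' protocols, Trizol was used to isolate RNA, which was then DNase treated and cleaned on columns. In every sample all values were whole multiples of 1 factor within a tolerance of 0.05 of a count, and dividing by it gave the implied counts. A count model was not used, since the deposited signal is scaled and the implied counts are inferred from it. No control probe was used here, so the scaling and a detection limit could not be checked. Symbols came from RefSeq accessions matched to GRCm38.p6 (34 of 72 probes), and hosts from annotated spans there. The probes' own build was not stated, and coordinates are printed for promoters only.

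Changes were fitted with limma 3.58.1 (R 4.3.3) on log2(value + 1) over all 67 measured probes, with state as the only term. They were tested two-sided with Benjamini-Hochberg adjustment and a threshold of 0.05. The fit was also run on simulated data with independent noise for each probe. That check cannot cover departures that many probes of a sample share. Ratios and sums were tested by exact permutation over all 20 splits of 6 samples, with p adjusted over the 6 pairs (Python 3.11.15, numpy 2.4.6, pandas 2.3.3, scipy 1.17.1). Named snoRNAs are the 4 members, the 2 nearest profiles with a symbol to each and called members of the list. Members, lists and tests were chosen with earlier results of these data known. Snora65 and Snora69 were added to the list's account, and motifs were chosen, after values were seen. Alternatives were 3 scalings, pseudocounts of 10 and 0.1, leaving out probes with a mean under 100, a robust fit with trend, a block, averaging myotube samples 1 and 2, and leaving out each sample.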

Additional observations from a re-analysis of the deposited data

How the results depend on the processing

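Of 75 recomputed values of the limma changes and of the panel's count of calls, 70 kept their direction and their side of the threshold, or stayed within 1.5 times of the count. Ratios, the share and the summed level gave 87 further values, of which 86 kept their direction. Their exact tests cannot pass 0.05, so their side of the threshold says nothing about stability. A replicate block cannot move a mean difference in this balanced design, and the pseudocounts and the filter hardly touch these 4 snoRNAs. Part of both tallies was therefore fixed in advance. Under quantile normalization the log2 change of Snora31 was 0.45 (limma adjusted p = 0.059), that of Snora41 was 0.50 (limma adjusted p = 0.01) and the difference of the log2 ratio of Snora31 to Snora41 was -0.053. Without myotube sample 3 the log2 change of Snora41 was 0.70 (limma adjusted p = 0.0091) and that of Snora81 was 0.020, and without myoblast sample 1 that of Snora81 was 0.015. The cause of these changes was not tested. Over the samples left out in turn, log2 changes ranged from 1.39 to 1.70 for Snora28, from 0.65 to 0.92 for Snora31, from 0.37 to 0.70 for Snora41 and from -0.54 to 0.020 for Snora81, and the panel's calls from 29 to 42. With myotube samples 1 and 2 averaged the panel had 31 calls. The log2 changes were then 1.56, 0.67, 0.38 and -0.45 for Snora28, Snora31, Snora41 and Snora81, with limma adjusted p of 0.0016, 0.033, 0.22 and 0.35. The labels do not say that replicate numbers mark shared cultures. Deviations from group means of same-numbered samples correlated over probes at 0.44, -0.74 and -0.018 for numbers 1 to 3. For differently numbered samples these correlations ran from -0.55 to 0.69. With the replicate number as a block the panel had 38 calls, and the log2 changes were 1.59, 0.76, 0.49 and -0.29 for Snora28, Snora31, Snora41 and Snora81, with adjusted p of 1.7e-09, 0.0026, 0.057 and 0.27. In that fit and with sample medians subtracted, limma gave every probe the same SE, so their adjusted p follow the size of the change alone. With the block, differences of ratios, the summed level and the share had exact sign-flip p of 0.25 or 0.5, where 0.25 is the smallest that 3 pairs allow. Without myoblast sample 1, each difference of a log2 ratio was smaller and kept its sign. The planned edgeR and DESeq2 fits were not run, because the deposited values are scaled and counts recovered from them were not taken as counts. Counting error, taken from the implied counts, was at most 2.15% for any value of the 4 snoRNAs. The effect of depth or of the number of samples on the calls was not tested.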
